A study of Mus musculus with 2 samples.

Results

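The 10 genes described here encode the core transcription factor complex of red blood cell precursors and its closest partners. They were taken by symbol, matched through the mouse gene identifier, and make up 10 of the 43346 mouse gene rows measured: Gata1, Gata2, Zfpm1, Tal1, Lyl1, Lmo2, Ldb1, Klf1, Gfi1b and Nfe2. Total RNA was sequenced from the liver of mouse embryos of the B6NCrl strain at 14.5 days, with no treatment or altered allele named in the labels. There were 2 biological replicates with 1 library each, both in 1 group, so values stand per liver or as a mean with its SD over the 2 livers, and the design allows no test between groups. Each library started from 10 ng of RNA longer than 200 nucleotides with synthetic spike-in RNAs added. The labels call each sample a single liver and also pooled male and female tissue. The livers were collected on different days, so liver and day cannot be told apart.

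GATA1 is the zinc finger factor without which red cell precursors do not mature, and it binds the letters GATA in DNA. In red cell precursors it sits in a complex in which TAL1, paired with an E protein, binds a neighbouring E-box, while LMO2 and LDB1 bridge the DNA-binding proteins and let distant sites meet. KLF1 binds CACCC-type sequences, FOG1 (gene Zfpm1) binds GATA1 itself, GFI1B is a repressor, and the NFE2 subunit pairs with small Maf proteins at globin control regions. The fetal liver is the main site of definitive red cell formation at this age.

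The libraries held 39998450 estimated reads (replicate 1) and 28848861 (replicate 2), of which 92.7% and 93.3% lay on mouse genes. The libraries held RNA of many cell types. The summed level of 8 erythroid marker genes came to 2944 and 3120 TPM in replicates 1 and 2, that of 6 hepatoblast markers 18111 and 19004 TPM, and that of 6 neutrophil markers 2534 and 1822 TPM. TPM is a transcript's share of all transcripts after scaling by length, and levels of different genes are compared here on this scale. Every marker in the 8 cell type lists had reads in at least 1 liver. In RNA from whole tissue, fewer cells of a type and less RNA per cell cannot be told apart.

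All 10 genes were detected, meaning 1 TPM or more in both livers, against 26.2% of all mouse gene rows and 49.2% of protein-coding rows. A mean of 10 TPM or more was reached by 9 of the 10, against 12.9% of all rows and 24.8% of protein-coding rows. Gata2 was the exception. The median of the 10 was 63.4 TPM, beside 9.66 TPM for the 11375 detected genes, and 5 of the 10 were among the top 10% of detected genes. Together the 10 genes took 964 and 1074 TPM in the 2 livers, which is 0.113% ± 0.0081 (SD, n = 2) of mouse TPM. Klf1 alone made up 44.1% and 43.1% of that sum.

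**Figure D1:**
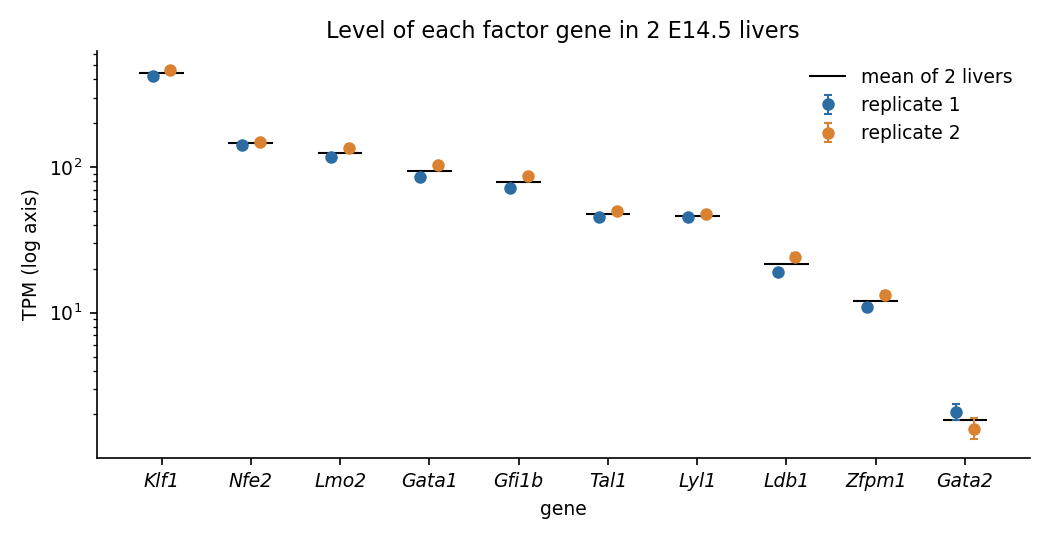
Level of each of the 10 genes in TPM on a log axis, with 1 point per liver, a black bar for the mean (n = 2) and error bars for the 95% counting interval, which are hidden behind most points. Klf1 stands at the top at 425 and 463 TPM, Gata2 at the bottom at 2.08 and 1.60 TPM, and the points of Tal1 and Lyl1 lie on each other.

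From high to low by mean TPM the order was Klf1, Nfe2, Lmo2, Gata1, Gfi1b, Tal1, Lyl1, Ldb1, Zfpm1 and Gata2. For 7 of the 9 neighbouring pairs the ranges of the 2 livers did not overlap. Gata1 and Gfi1b overlapped, although Gata1 was 1.19-fold higher within each liver. Tal1 and Lyl1 overlapped too, and their order was opposite in the 2 livers. The widest steps in level lay between Zfpm1 and Gata2, at 6.56-fold of the means, and between Klf1 and Nfe2, at 3.05-fold.

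Gata1 (ENSMUSG00000031162.10, chromosome X, 7959260 to 7978071, minus strand, GRCm38) was at 85.8 and 103 TPM in replicates 1 and 2, from 6424 and 5350 estimated reads. Its mean of 94.5 ± 12.3 TPM ranked 940 among detected genes. Gata2 (ENSMUSG00000015053.10, chromosome 6, 88193891 to 88207032, plus strand), which acts in blood stem cells, early progenitors and mast cells, was at 2.08 TPM and 1.60 TPM, from 270 and 145 reads. The counting intervals at 95% were 1.84 to 2.34 TPM and 1.35 to 1.88 TPM. They overlap, although the counting interval of the fold between the livers, given further on, excludes 1. Gata2 ranked 10319 among detected genes, above 9.29% of them. Gata1 thus stood 41.3-fold above Gata2 in one liver and 64.5-fold in the other, and the log2 ratio averaged 5.69 ± 0.46.

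The other GATA genes were low beside Gata1. Gata4, a factor of liver, heart and gut, had a mean of 4.74 ± 0.11 TPM and Gata6 1.80 ± 0.21 TPM. Gata3, the T cell factor, and Gata5 were below the detection level, at 0.41 ± 0.14 and 0.17 ± 0.01 TPM. Gata1 was 12.0-fold and 14.6-fold above the sum of Gata3, Gata4, Gata5 and Gata6 in the 2 livers. The level of Gata2 was therefore close to that of Gata6 and below that of Gata4.

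Gata1 transcripts came almost all from 1 start site. The transcript Gata1-201, which encodes 413 codons, held 98.95% and 98.44% of the gene's TPM. Gata1-202, which starts 10161 bases upstream, held 0.91% and 1.22%, from 18.9 and 21.1 reads. Gata2 has its transcripts at a pair of starts. Gata2-201 held 65.5% of Gata2 TPM in replicate 1 and 80.9% in replicate 2, and Gata2-202, which starts 4443 bases upstream, held 34.5% and 19.1%. Both encode the same 480 codons. The Gata2-202 share rests on 91.1 and 26.9 estimated reads, and the authors' posterior SD of the division between the forms was 10.7% of the gene's reads in replicate 1 and 8.52% in replicate 2. Both forms have another length in the deposited table than in GENCODE M21, from which the start positions were taken.

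**Figure D2:**
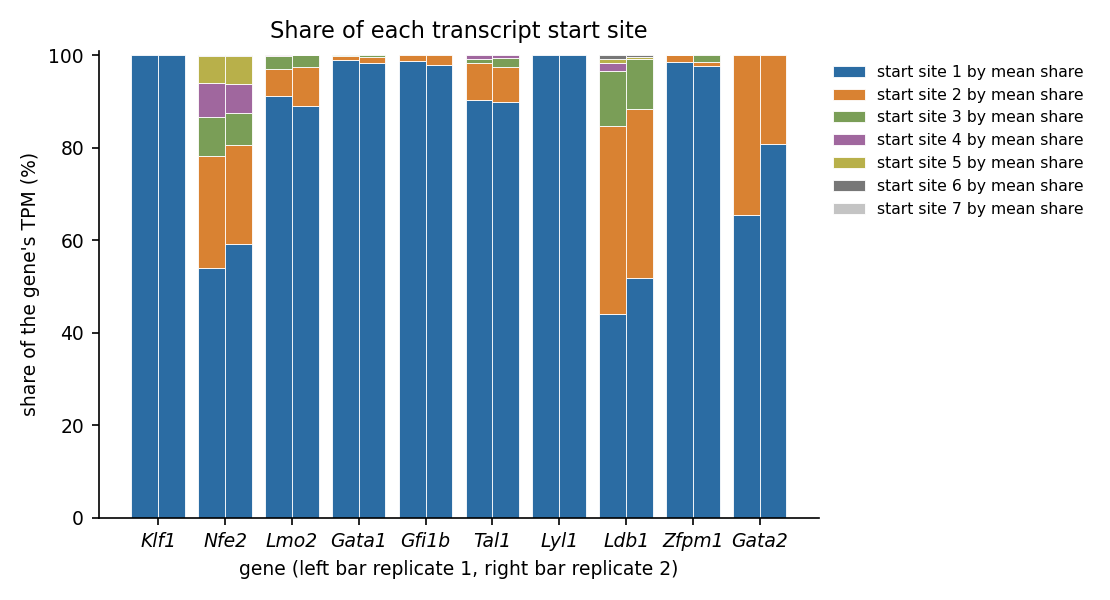
Share of each gene's TPM, in percent, by transcript start site, with starts within 100 bases grouped and stacked by mean share. Each gene has a left bar for replicate 1 and a right bar for replicate 2. The main start holds 85% or more in both livers for 7 of the 10 genes, and Nfe2, Ldb1 and Gata2 spread over several starts.

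The 250 bases upstream of the start are shown for 5 genes whose levels span the set, to let the letters recognised by these same factors be read beside the levels. Sequences come from the RefSeq promoter table (GRCm38.p6), on the gene's strand, ending 1 base before the start, and capitals mark matches to the 4 single motifs named in the next paragraph, not to the combined one. The windows are Gata1 at chrX:7967911-7968160 (minus strand), Gata2 at its upstream start at chr6:88193641-88193890 (plus), Tal1 at chr4:115056176-115056425 (plus), Klf1 at chr8:84901732-84901927 (plus) and Gfi1b at chr2:28621983-28622232 (minus). The Klf1 stretch has 196 bases, since it ends where the annotated exon begins. The Gata2 window is that of Gata2-202, the less used form, and the table's other Gata2 window lies within annotated exons and is not printed.
Gata1: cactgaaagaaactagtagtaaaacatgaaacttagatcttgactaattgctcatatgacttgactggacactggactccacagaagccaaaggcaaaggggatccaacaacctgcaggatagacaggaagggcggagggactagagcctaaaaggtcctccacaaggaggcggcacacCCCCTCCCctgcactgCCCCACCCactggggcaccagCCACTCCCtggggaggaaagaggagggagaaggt
Gata2: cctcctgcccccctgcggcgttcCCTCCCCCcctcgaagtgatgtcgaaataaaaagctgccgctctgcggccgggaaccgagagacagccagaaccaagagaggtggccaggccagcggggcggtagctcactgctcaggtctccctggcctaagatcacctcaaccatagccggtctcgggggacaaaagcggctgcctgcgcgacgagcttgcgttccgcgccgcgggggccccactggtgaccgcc
Tal1: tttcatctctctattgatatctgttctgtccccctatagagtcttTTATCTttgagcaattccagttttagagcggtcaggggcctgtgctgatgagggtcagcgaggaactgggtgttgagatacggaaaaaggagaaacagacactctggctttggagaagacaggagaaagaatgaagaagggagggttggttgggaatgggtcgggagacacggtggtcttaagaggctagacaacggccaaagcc
Klf1: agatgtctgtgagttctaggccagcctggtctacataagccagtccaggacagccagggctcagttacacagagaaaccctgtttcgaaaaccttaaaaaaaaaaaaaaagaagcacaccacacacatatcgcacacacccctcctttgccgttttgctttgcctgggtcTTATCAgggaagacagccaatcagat
Gfi1b: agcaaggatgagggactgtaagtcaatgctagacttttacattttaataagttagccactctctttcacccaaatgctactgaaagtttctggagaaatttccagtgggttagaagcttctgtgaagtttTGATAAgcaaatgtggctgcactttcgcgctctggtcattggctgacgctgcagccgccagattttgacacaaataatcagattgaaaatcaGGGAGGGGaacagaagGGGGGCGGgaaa

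Motifs were searched on both strands in the 250 bases upstream. The GATA motif was AGATAA or TGATAA. The E-box, which TAL1 with an E protein can bind, was CAGNTG. The motif of the KLF1 kind was CCNCNCCC, and the core of the NFE2 site was TGAGTCA. A combined motif held the letters CTG, 7 or 8 bases of any kind and then the GATA motif, so each match overlaps a GATA match. Of the 10 genes, 8 were matched in the promoter table, with 12 windows, and Lmo2 and Nfe2 were not. A GATA motif was in 4 of the 12 windows, against 16.6% of all 32817 promoters, at Gfi1b, Klf1, Tal1 and an Ldb1 start. That Ldb1 start is not among those of the measured transcripts, and the other Ldb1 windows held no GATA motif. The window starts of Klf1 (84901982), Ldb1 (46045311) and Gata2 (88198664) are not among them either. Klf1-201 starts at 84901928, and no window ends at the start of Ldb1-201. Distances below are counted from the promoter table's start. The combined motif was in 2 of the 12, at Gfi1b (131 to 115 bases before the start) and Klf1 (80 to 65 bases before), against 0.847% of all promoters. Motifs of the KLF1 kind were in 10 of 12 windows, against 45.9%, including 3 in the Gata1 window, and E-boxes in 3 of 12, against 44.8%. Some genes have several windows, and by gene the counts were 7 of 8 and 3 of 8. Some matches of the KLF1 kind, at Lyl1 and a Gata2 window, are plain runs of G. The Klf1 E-box runs into the annotated exon and is not in the printed stretch. The NFE2 core was in 0 of 12, against 4.46%, which says only that these letters are not in these windows. A match is a run of letters and does not show that a factor binds there.

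FOG1, encoded by Zfpm1 (ENSMUSG00000049577.10, chromosome 8, 122282141 to 122337251, plus strand), was at 10.9 and 13.3 TPM, from 1478 and 1243 reads. The cofactor transcript was thus below that of the factor it binds. Gata1 exceeded Zfpm1 by 7.90-fold and 7.79-fold, and the log2 ratio averaged 2.97 ± 0.01, the closest agreement between livers among the 6 ratios computed. Its relative Zfpm2, which acts in heart and gonad, was at 0.47 ± 0.07 TPM. The full-length transcript Zfpm1-201, of 995 codons, held 98.6% and 97.7% of Zfpm1 TPM. FOG1 brings the NuRD complex to its targets. All 11 NuRD genes listed were detected, against 49.2% of protein-coding rows, with a median of 18.4 TPM. Rbbp4 (197 ± 5.23 TPM), Rbbp7 (156 ± 1.53 TPM) and Mbd3 (36.0 ± 0.17 TPM) were the highest, and Chd3 (1.74 ± 0.24 TPM) the lowest.

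Tal1 (ENSMUSG00000028717.8, chromosome 4, 115056426 to 115071755, plus strand) was at 45.1 and 49.7 TPM, from 7200 and 5521 reads. Lyl1 (ENSMUSG00000034041.4, chromosome 8, 84701457 to 84704715, plus strand), which encodes a related helix-loop-helix factor with overlapping roles in blood stem cells, was at 45.4 and 47.3 TPM, from 3227 and 2340 reads. The 2 relatives had the same level within their spread: the log2 ratio of Tal1 over Lyl1 was -0.01 in replicate 1 and 0.07 in replicate 2. Their other relatives had few or no reads. Tal2 and Nhlh1 had 0 reads in both livers, a count that allows up to 3 reads per library, and Nhlh2 had 1 read in replicate 1. Tal1-201, of 329 codons, held 90.4% and 89.97% of Tal1 TPM. Tal1-202, which starts 1012 bases downstream, held 7.95% and 7.47%, but it is 683 bases long and rests on only 87.5 and 63.0 reads. Lyl1 has 1 annotated transcript, and 4 of its exon bases overlap Nfix on the other strand.

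TAL1 and LYL1 bind DNA with E proteins, and Id proteins take E proteins away from them. All 3 E protein genes were detected, against 49.2% of protein-coding rows. Tcf3 was at 34.4 and 45.9 TPM, Tcf12 at 7.11 and 8.78 TPM, and Tcf4 at 4.41 and 5.03 TPM. Summed, Tal1 and Lyl1 stood 1.97-fold above the E proteins in replicate 1 and 1.63-fold in replicate 2. The Id genes summed to 136 and 134 TPM, or 2.95-fold and 2.24-fold above the E proteins. Id2 gave most of that sum at 90.9 and 87.7 TPM, followed by Id3 at 27.6 and 27.3 TPM and Id1 at 16.9 and 18.6 TPM, while Id4 was at 0.14 and 0.20 TPM.

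Lmo2 (ENSMUSG00000032698.11, chromosome 2, 103957986 to 103981878, plus strand), the LIM-only bridge between TAL1 and LDB1, was at 116 and 135 TPM, from 6695 and 5314 reads. Its transcript Lmo2-208 held 89.6% and 87.3% of the gene's TPM. The start that it shares with Lmo2-207 held 90.1% ± 1.44, and a start 11542 bases downstream held 7.19% ± 1.74. That downstream start is Lmo2-204 alone, which is 848 bases long and held only 3.25% and 4.65% of the gene's reads. Among its relatives, Lmo4 was at 11.1 ± 0.27 TPM, Lmo1 at 0.53 ± 0.06 TPM, and Lmo3 had 0 reads in replicate 1 and 1 read in replicate 2.

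Ldb1 (ENSMUSG00000025223.10, chromosome 19, 46031570 to 46045214, minus strand), the dimerising scaffold that LMO2 binds, was at 19.0 and 24.2 TPM, from 1436 and 1255 reads. Ldb1 was thus the lower partner: its log2 ratio over Lmo2 was -2.62 in replicate 1 and -2.48 in replicate 2, and Lmo2 was 6.14-fold and 5.58-fold above it. Of the exon bases of Ldb1, 177 overlap Pprc1 on the other strand, which was at 20.6 and 23.1 TPM. The sources used here do not state a strand setting for the counting, so reads of these genes may be mixed. The related Ldb2 was at 2.34 ± 0.30 TPM. The SSBP proteins bind LDB1 and protect it from degradation, and their 3 genes summed to 84.3 and 97.7 TPM, or 4.44-fold and 4.04-fold above Ldb1: Ssbp2 was at 35.1 ± 2.18 TPM, Ssbp3 at 28.9 ± 2.98 TPM and Ssbp4 at 26.9 ± 4.36 TPM.

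Ldb1 was the only one of the 10 genes without a transcript at 50% or more in both livers. Ldb1-201 held 44.0% and 51.9% of its TPM. Ldb1-206, from a group of starts whose near edge lies 296 bases upstream, held 40.8% and 36.5%. By reads, not scaled by length, their order was opposite in replicate 1. There Ldb1-201 (1718 bases) held 39.3% and Ldb1-206 (2108 bases) 45.3% of the gene's reads. In replicate 2 they held 47.0% and 41.1%. Ldb1-205, which starts 5433 bases downstream and encodes 319 codons, held 11.8% and 10.8%.

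**Figure D3:**
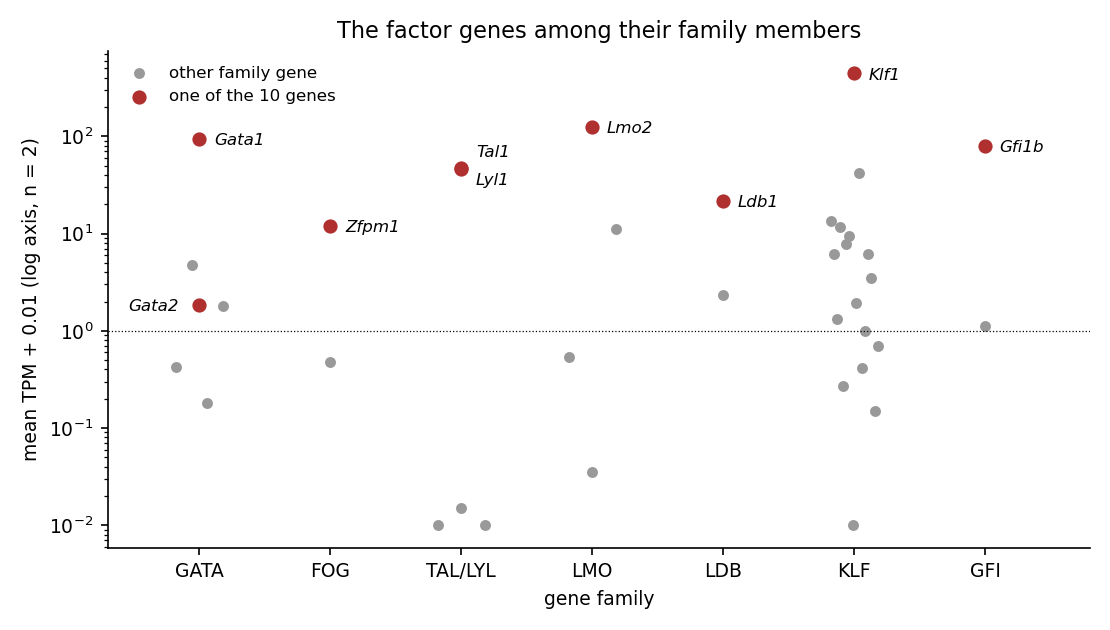
Mean TPM + 0.01 on a log axis (n = 2) for the 10 genes except Nfe2, in red, and the other genes of their families, in grey, with a dotted line at 1 TPM. Except for Gata2, every red gene is the highest of its family or, for Tal1 and Lyl1, shares the top.

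Klf1 (ENSMUSG00000054191.7, chromosome 8, 84901928 to 84905291, plus strand), the CACCC-binding activator of adult beta globin and many other red cell genes, was the highest of the 10 at 425 and 463 TPM, from 25516 and 19317 reads. It ranked 205 among detected genes. Its family members were far lower. The next highest KLF gene, Klf3, whose transcription KLF1 activates, was at 36.8 and 46.6 TPM, and Klf1 stood 11.5-fold and 9.94-fold above it. Klf1 was 4.33-fold and 4.13-fold above the sum of the other 16 KLF genes. Of these 16, 10 were detected, against 49.2% of protein-coding rows, with a median of 2.68 TPM. Klf10 (13.3 ± 0.56 TPM) and Klf13 (11.7 ± 1.63 TPM) followed Klf3, and Klf17 had 0 reads.

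Textbook targets of KLF1 were mostly present: 12 of the 13 measured were detected, against 49.2% of protein-coding rows, with a median of 103 TPM. Hbb-bs (79324 ± 1946 TPM), Hbb-bt (73351 ± 2277 TPM) and Alas2 (822 ± 14.4 TPM), the first enzyme of haem synthesis in red cells, were the highest. Klf8, which KLF1 activates and KLF3 represses in red cells, was the lowest at 0.14 ± 0.08 TPM, from 39 and 11 reads. Klf3 is itself on this list, and 1 listed gene was not matched and is not analysed here.

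Gfi1b (ENSMUSG00000026815.10, chromosome 2, 28609450 to 28621982, minus strand), a repressor needed for red cells and megakaryocytes, was at 72.3 and 86.7 TPM, from 4823 and 3996 reads. Its close relative Gfi1, which acts in neutrophils and stem cells, was at 1.37 and 0.87 TPM, from 138 and 54 reads. Gfi1b was thus 52.8-fold and 99.6-fold above Gfi1. GFI1B recruits the LSD1-CoREST corepressor through its SNAG domain. Of the genes of that complex, 7 of 8 were detected, against 49.2% of protein-coding rows, with a median of 8.11 TPM. Hdac1 was at 90.6 ± 4.33 TPM, Hdac2 at 52.7 ± 4.78 TPM and Hmg20b at 18.2 ± 2.12 TPM. The demethylase gene Kdm1a was at 10.7 ± 1.12 TPM, and Rcor2 was lowest at 0.37 ± 0.15 TPM. The ETO family, corepressors found in the TAL1 complex, was lower, with Runx1t1 at 7.62 ± 0.99 TPM, Cbfa2t2 at 4.61 ± 0.40 TPM and Cbfa2t3 at 3.89 ± 0.94 TPM.

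Gfi1b had 2 coding forms from the same group of starts. Gfi1b-201, of 330 codons, held 75.5% and 72.1% of its TPM, and Gfi1b-204, of 363 codons, held 23.2% and 25.7%. The longer form carries 99 extra bases (33 codons, after codon 216) at the start of exon 6 of 7, at chr2:28611585-28611683 (minus strand, GRCm38). The junctions are shown, with 15 bases on each side, because this stretch is the difference in coding length between the forms, and capitals mark the extra bases, from GENCODE M21 transcripts.
Gfi1b-204: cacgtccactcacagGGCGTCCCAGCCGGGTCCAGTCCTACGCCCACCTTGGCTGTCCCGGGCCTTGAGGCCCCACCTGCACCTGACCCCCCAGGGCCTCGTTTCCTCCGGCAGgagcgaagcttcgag
Gfi1b-201: cacgtccactcacaggagcgaagcttcgag

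With the extra bases the share was 24.5% ± 1.75 and without them 73.8% ± 2.36. Both livers gave the same order, and the difference between livers was small beside that between forms.

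Nfe2 (ENSMUSG00000058794.8, chromosome 15, 103248212 to 103258403, minus strand), the red cell and megakaryocyte partner of the small Maf proteins, was at 142 and 150 TPM, from 8426 and 6301 reads. Among the 10 only Klf1 was higher. The 3 small Maf genes summed to 34.7 and 40.4 TPM, so Nfe2 was 4.09-fold and 3.70-fold above them. Mafg was at 19.0 ± 2.98 TPM, Mafk at 17.8 ± 1.252 TPM and Maff at 0.79 ± 0.19 TPM. Of the 8 partners and competitors, 5 were detected, against 49.2% of protein-coding rows, with a median of 6.11 TPM. Nfe2l2, the oxidative stress factor NRF2, was the highest at 33.7 ± 1.42 TPM and Nfe2l3 the lowest at 0.13 ± 0.06 TPM. Bach1, a repressor at the same sites, was at 4.05 ± 0.91 TPM.

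Nfe2 was spread over 5 groups of starts with more than 5% of its TPM each in both livers. Nfe2-201 held 54.1% and 59.2% of its TPM. A group of starts 3974 bases downstream held 24.2% and 21.4%, and its main transcript, Nfe2-205, held 17.0% and 16.2% and encodes 396 codons in place of 373. Further groups 3763, 2287 and 2629 bases downstream held 7.75%, 6.81% and 5.86%. The last 2 of these are single transcripts of 774 and 784 bases, and their share of the gene's reads was lower. It was 3.46% and 2.79% in replicate 1, and 2.95% and 2.80% in replicate 2. By TPM, the order of the 5 groups was the same in both livers.

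**Figure D4:**
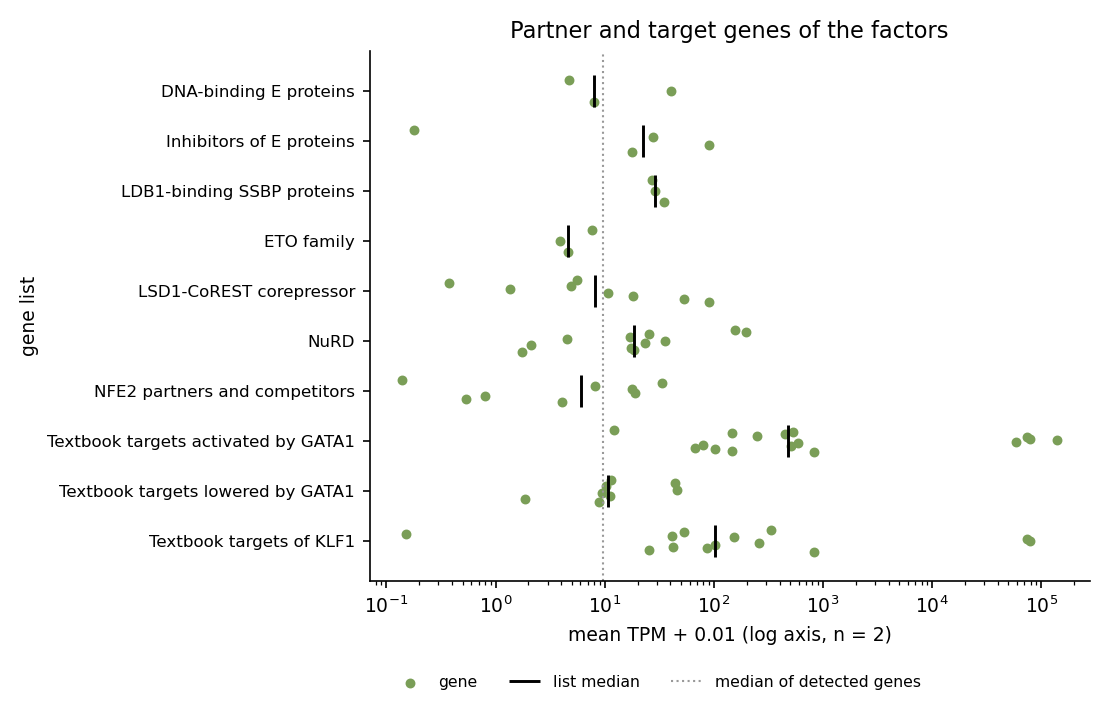
Mean TPM + 0.01 on a log axis (n = 2) for the partner and target genes of the factors, 1 point per gene, with a black bar at each list's median and a dotted line at 9.66 TPM, the median of detected genes. The targets activated by GATA1 and those of KLF1 lie far to the right, with medians of 475 and 103 TPM, and the partner lists lie around the dotted line.

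Textbook targets activated by GATA1 were detected in 16 of 16 cases, all at a mean of 10 TPM or more, with a median of 475 TPM. Of all protein-coding rows, 49.2% were detected and 24.8% reached that mean. Hba-a2 (139139 ± 3832 TPM), Hbb-bs and Hbb-bt were the highest and Zfpm1 the lowest. This list holds 4 of the 10 genes (Klf1, Zfpm1, Gfi1b and Nfe2). Textbook targets lowered by GATA1 were detected in 8 of 8 cases, with a median of 10.7 TPM, and 5 reached 10 TPM. Lyl1 was the highest, before Myc (44.2 ± 1.20 TPM) and Spi1 (11.5 ± 1.73 TPM), and Gata2 was the lowest. The lists are not independent of the 10 genes or of each other.

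Between the livers, the 10 genes differed little. On log2 of TPM plus 1, replicate 2 was above replicate 1 for 9 of 10 genes (7 of 10 on TMM-scaled CPM, given further on), against 72.0% of the 12114 genes at 1 TPM or more in either liver and 76.3% of those averaging 10 TPM or more, and Gata2 was the exception. The median difference of the 10 was 0.17, beside 0.10 for all those genes. Past a log2 difference of 0.32 either way, 1 of the 10 was higher in replicate 2 (Ldb1, log2 difference 0.33, against 10.4% of genes) and 0 were lower (against 4.13%). Past 2-fold there were 0 of 10, against 1.21% of genes. The coefficient of variation of TPM over the livers ran from 3.02% for Lyl1 to 18.4% for Gata2, with a median of 11.6%.

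**Figure D5:**
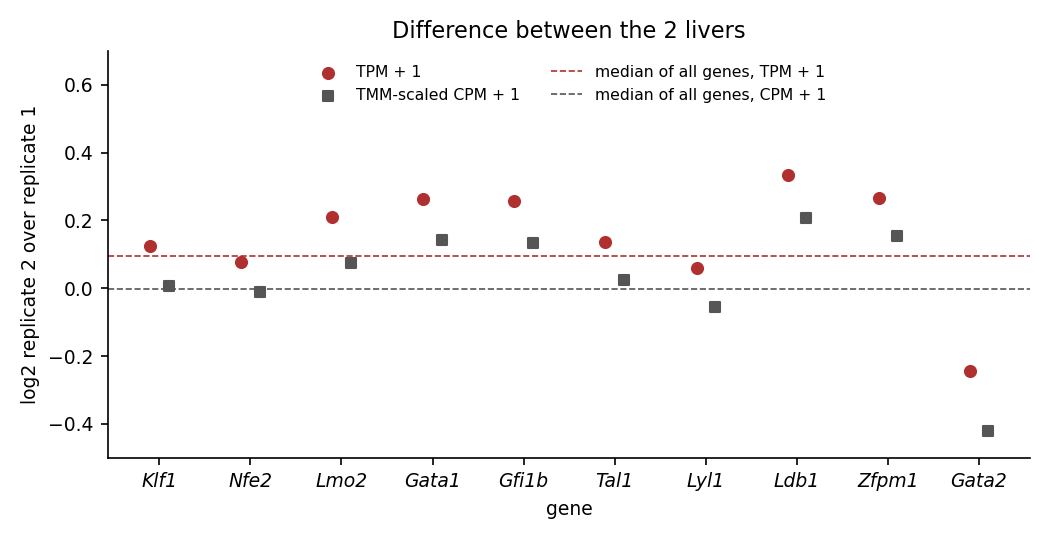
Difference between the livers for each of the 10 genes, as log2 of replicate 2 over replicate 1, on TPM plus 1 (red circles) and on TMM-scaled CPM plus 1 (grey squares), with dashed lines at the medians of all genes. On TPM, Ldb1 is highest at 0.33 and Gata2 lowest at -0.24; on the other scale the values shift downward, to 0.21 and -0.42, and Nfe2 and Lyl1 fall below 0.

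The values differed with the scale, and TMM factors place the middle of all genes near 0 by construction. On CPM, reads scaled to the library total with TMM factors and not by length, the median over all genes was -0.00 and that of the 10 genes 0.05, 7 of 10 were higher in replicate 2 (against 49.0% of genes, and 44.3% of those averaging 10 TPM or more), and Nfe2 and Lyl1 changed sign to -0.01 and -0.06. Gata1 (0.26 on TPM, 0.14 on that scale), Gfi1b (0.26 and 0.13) and Zfpm1 (0.26 and 0.15) were higher in replicate 2 on both. Klf1 was nearly level, at 0.12 and 0.01. Gata2 was lower in replicate 2 on both, with a TPM fold of 0.769 (counting interval 0.624 to 0.945 at 95%). Counting intervals for the other folds excluded 1 except for Lyl1 (1.04, 0.989 to 1.10), and they cover counting error only.

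Marker genes also differed between the livers. Of all genes at 1 TPM or more in either liver, 72.0% were higher in replicate 2 on TPM and 49.0% on TMM-scaled CPM. The mast cell and basophil list, cells that use Gata2, summed to 26.2 and 13.0 TPM. On TPM, 5 of its 6 genes were lower in replicate 2, and Cpa3 was higher, at 2.66 and 2.88 TPM. Mcpt8, a basophil protease, had the largest difference of the list, at 12.6 and 3.51 TPM. The stem and progenitor list, at 31.2 and 31.7 TPM, was level. The megakaryocyte list, cells that share Gata1, Gfi1b, Nfe2 and Zfpm1 with red cells, summed to 545 and 685 TPM, with 6 of 6 genes higher in replicate 2 on both scales. The erythroid list was higher in 7 of 8 genes on TPM and in 4 of 8 on TMM-scaled CPM. The part of these cells in the levels of the 10 genes was not tested.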

How the data were processed

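Total RNA of 2 livers was sequenced, and the authors deposited a gene and a transcript table per library, made on mm10 with GENCODE M4, as the description deposited with them says. The sources used here name no aligner, counting program or strand setting. The authors deposited expected counts without normalization, TPM over all rows with spike-ins, and FPKM, per the file headers. They also deposited, per the file headers, the percent of a gene's TPM held by each transcript, and, as further signal columns, posterior SDs and credible bounds of the estimates. Rows with numeric identifiers were left out, and 1 exon junction is not reported here.

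The 10 genes and all lists were chosen with earlier results of these data known. Named are the 10 genes with their leading 2 transcripts, of each list the lowest gene and the 3 highest, and every gene of the short lists and of the families other than KLF. Named outside that rule, after their values were seen, were Kdm1a, Bach1, Maff, Mcpt8, Cpa3, Pprc1, Nfix, Lmo2-207 and Ldb1-205. Symbols, positions and transcript starts were matched by identifier to GENCODE M21 (GRCm38), with 42462 of 43346 mouse rows named and 111 of 112 listed genes found. Of the 45 transcripts, 41 have the same length there as in the deposited tables. Start sites within 100 bases were grouped. Detected means 1 TPM in both livers. Differences used log2 of TPM plus a pseudocount of 1, which understates those of low genes. Counting intervals (exact Poisson for levels, 95%) cover counting error only, since amplified reads are not independent molecules. Both replicates carry the same donor label with different collection days, and with 1 group the SD measures only the spread between 2 samples.

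Alternatives were expected counts, FPKM, posterior mean TPM, CPM from expected counts with TMM factors, TPM without globin genes, other pseudocounts and filters, and each library alone. TMM factors came from edgeR on rounded counts, with no test. On simulated data, only the calling of planted changes at 2-fold and the finding of planted motifs were checked. Software was R 4.3.3, edgeR 4.0.16, Python 3.11.15, matplotlib 3.10.9, scipy 1.17.1, pandas 2.3.3 and numpy 2.4.6.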

Additional observations from a re-analysis of the deposited data

How the results depend on the processing

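Of 218 recomputed values, 132 stayed within the spread between livers, within 0.05 (log2) for differences between livers, or within 1.5 times for counts. For a plain mean of 2 livers, each library alone lies within that spread by construction. The share of a gene's only transcript cannot move either. The count of 132 therefore includes values whose outcome was fixed in advance. No paired analysis was possible because there is 1 group. The summed level was 0.183% of mouse expected counts, 0.186% of mouse TPM without globin genes, and 0.108% to 0.119% of mouse TPM with each library alone. The median percentile of the 10 genes was 92.1 among genes with any read in both livers, 91.7 by TMM-scaled CPM, and 87.2 to 88.2 with each library alone. By expected counts, which are not scaled by length, the log2 ratios were 4.89 for Gata1 over Gata2, 1.20 for Tal1 over Lyl1, 2.11 for Gata1 over Zfpm1, -2.15 for Ldb1 over Lmo2 and 2.87 for Klf1 over Klf3. With a pseudocount of 1 they were 5.07 for Gata1 over Gata2, 2.87 for Gata1 over Zfpm1 and 5.25 for Gfi1b over Gfi1, and by posterior mean TPM 2.93 for Gata1 over Zfpm1. Tal1 over Lyl1 ran from -0.0083 to 0.0705 with each library alone, so its direction rests on 1 library. The median difference between livers of the 10 genes was 0.12 by FPKM, 0.0487 by TMM-scaled CPM and 0.12 without globin genes. That of all genes was 0.048 by FPKM, -0.0037 by TMM-scaled CPM, a shift of about 0.1, 0.052 without globin genes and 0 with no filter. By TMM-scaled CPM Nfe2 was at -0.0121 and Lyl1 at -0.056. TMM-scaled CPM changes the length scaling and the library scaling together. Klf1 and Lyl1 had the same effective length in both livers, 1435 and 1701 bases. Their differences still moved, from 0.12 to 0.01 and from 0.06 to -0.06. TMM factors centre the log ratios of all genes near 0, so the median of all genes on that scale was largely fixed in advance. The cause of the moves was not tested. Orders on other scales and start-site groupings were chosen after seeing the data. With 2 libraries the spread itself is poorly known, and Gata2 and Gfi1 rest on few reads.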

Other observations

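Of 14 other transcription factors of blood cells, 10 were detected, against 49.2% of protein-coding rows. Their median was 4.84 TPM beside 63.4 TPM for the 10 genes. Ikzf1, a lymphoid and red cell factor, was the highest at 43.7 ± 8.15 TPM (SD, n = 2), followed by Spi1, the myeloid factor PU.1, at 11.5 ± 1.73 TPM and Hhex at 11.1 ± 0.44 TPM. Runx2, a bone factor, was the lowest at 0.41 ± 0.15 TPM. Between the livers, Spi1 was at 12.7 and 10.3 TPM (replicates 1 and 2) and Ikzf1 at 37.9 and 49.4 TPM. The neutrophil marker list was lower in replicate 2 in 6 of 6 genes. Of all genes at 1 TPM or more in either liver, 72.0% were higher in replicate 2 on TPM. The part of the neutrophil list in the Spi1 values was not tested.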
